A study of Mus musculus with 20 samples.

Results

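The 6 RNAs described here are non-coding hosts of small nucleolar RNAs (snoRNAs): Gas5, Snhg5, Snhg11, Snhg15, Snhg16 and Snhg17. They are all genes whose probe sets carried a single symbol beginning with Snhg, together with Gas5, and they are 6 of the 15272 genes kept on the arrays. Where a gene had several probe sets, the one with the highest mean level on the 20 arrays stood for it, and it was kept if at least 2 arrays had it over their 40th percentile. All 6 passed, each on 20 of 20 arrays, so the filter on low values removed no member. RefSeq lists 19 mouse genes of this kind. Of the others, Snhg7 and Snhg8 were covered only by probe sets with several symbols and were not analysed here, and 11 had no listed probe set.

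RNA was measured in 4 lines of mouse embryo fibroblasts, all homozygous for ER-Cre, a recombinase activated by 4-hydroxytamoxifen (4-HT). Primary MEFs came from E14.5 embryos of genotype Ubf fl/fl (floxed) or Ubf wt/wt (control), and iMEFs are such MEFs immortalized by transfection of the SV40 T antigens. UBF is a DNA-binding factor of the ribosomal RNA genes, and 4-HT deletes part of its gene in Ubf fl/fl cells. Every line, controls included, received 50 nM 4-HT for 4 h and was harvested at 0, 24, 48, 72 and 96 h post treatment (pHT), each time giving 1 array. No condition had a replicate and each genotype of a cell type was 1 line, so all errors and p-values below measure scatter between times and not between lines or embryos.

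Host genes of this class are transcribed by RNA polymerase II. The snoRNAs lie in their introns and are released after splicing, and the proteins that bind them form particles that guide the methylation or pseudouridylation of ribosomal and spliceosomal RNA. The spliced exons encode no known functional protein, and many are short-lived because translation exposes them to nonsense-mediated decay. Many vertebrate snoRNA hosts begin transcription at a C followed by pyrimidines, the terminal oligopyrimidine (TOP) start shared with ribosomal protein genes. Gas5 was first found as an RNA that accumulates in growth-arrested fibroblasts, and Snhg11 is best known as an RNA of neurons.

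The loci are given in GRCm38.p6 coordinates (RefSeq). Snhg17 lies at chr2:158353700-158361522 on the minus strand and Snhg11 at chr2:158375713-158386474 on the plus strand, so they are transcribed away from each other with 14190 bp between their starts. Each holds 2 annotated snoRNAs. Gas5 (chr1:161034601-161038539) holds 8 snoRNAs and overlaps Zbtb37, a protein-coding gene. Snhg15 (chr11:6525591-6528760) holds 1 snoRNA, Snhg16 (chr11:116671660-116675798) holds 3, Snord1a, Snord1b and Snord1c, and Snhg5 (chr9:88521052-88522897) holds 2. Among all these snoRNAs only Snord47, in Gas5, had a probe set with a single symbol.

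The DNA around 4 annotated starts is shown because the TOP start is a sequence feature such hosts might share. The change after 4-HT differed most between floxed and control iMEFs for Gas5, Snhg15 and Snhg17, and Snhg11 is the neighbour of Snhg17. Each line runs 5′ to 3′ on the transcribed strand, from 50 bases before the annotated start, and capitals mark a run of 5 or more pyrimidines that begins with C within 5 bases of the start, or the hexamer CACGTG.
Gas5, second annotated start, plus strand, chr1:161035116-161035215: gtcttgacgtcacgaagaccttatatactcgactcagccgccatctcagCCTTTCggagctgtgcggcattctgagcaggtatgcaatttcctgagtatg
Snhg15, minus strand, chr11:6528711-6528810: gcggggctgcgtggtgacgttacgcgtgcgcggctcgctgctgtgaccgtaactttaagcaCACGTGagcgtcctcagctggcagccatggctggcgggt
Snhg17, first annotated start, minus strand, chr2:158361473-158361572: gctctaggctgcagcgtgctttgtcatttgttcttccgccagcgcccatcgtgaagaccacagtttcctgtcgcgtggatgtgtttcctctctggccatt
Snhg11, plus strand, chr2:158375663-158375762: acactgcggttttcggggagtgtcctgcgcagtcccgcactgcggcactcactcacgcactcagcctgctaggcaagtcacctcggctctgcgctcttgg
Of 8 annotated starts of the 6 genes, 1 had such a pyrimidine run, CCTTTC at the second start of Gas5. The same search found a run at 18.3% of 32851 mouse starts. CACGTG, which reads the same on both strands, was present in the 300 bases around the start of Snhg15 and in no other of these windows, against 7.15% of all windows. These are matches of letters at RefSeq starts, and start sites were not measured in these cells.

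The array values are log2 levels normalized by the authors. They do not count reads, the number of arrays limits their precision, and levels of different genes are not compared because each probe set responds in its own way. In bulk RNA, fewer cells of a type and less RNA per cell cannot be told apart. Where groups of values are said not to overlap, the share of all genes that behave so was not counted. The 20 arrays correlated at r between 0.75 and 0.995 with each other. Ubtf, which encodes UBF, ranged from 10.01 to 10.62 in Ubf fl/fl and from 9.49 to 10.45 in Ubf wt/wt iMEFs, and its late effect (the change of the floxed line over time minus that of the control) in iMEFs was 0.13 ± 0.18 (SE; limma, adjusted p = 0.703), so the array itself gave no check of the deletion. Fibroblast markers were present throughout, with 10 of 10 over the 40th percentile on every array.

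Snhg17 was the host whose change after 4-HT differed most between floxed and control iMEFs. With 1 line for each genotype, loss of UBF and a difference between the lines cannot be told apart. Floxed iMEFs (Ubf fl/fl) had log2 levels of 10.64, 9.54, 10.55, 11.13 and 11.22 at 0, 24, 48, 72 and 96 h pHT. Control iMEFs (Ubf wt/wt) gave 11.30, 10.87, 9.96, 10.12 and 10.59 at the same times. The control line thus started higher and ended lower, and the order of the lines was turned at 48, 72 and 96 h. From the early times (0 and 24 h) to the late times (48, 72 and 96 h) the mean changed by 0.88 in Ubf fl/fl cells, where early and late values overlapped, and by -0.86 in the control, where they did not. By these means about equal parts of the effect came from the floxed line and from the control. Relative to 0 h alone, the floxed line changed by -0.09, 0.49 and 0.58 at 48, 72 and 96 h. The control changed by -1.34, -1.18 and -0.71 at these times, more than the floxed line at each. The share of each line thus depended on whether 24 h was counted as early.

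To set the lines against each other, floxed minus control was taken at the late times and at the early times, and the second was subtracted from the first. This late effect cancels what 4-HT or time in culture did to both genotypes alike. For Snhg17 in iMEFs it was 1.74 ± 0.23 on the log2 scale (SE), or 3.34-fold, with an adjusted p = 0.0297 from limma over all genes. Of the 15272 genes, 0.223% passed in either direction (28 rose and 6 fell), and Snhg17 was the 1 of 6 hosts that did. Relative to 0 h alone the difference was 1.25 at 48 h, 1.67 at 72 h and 1.29 at 96 h, and -0.68 at 24 h. The call was lost when the 24 h arrays were left out (1.40, adjusted p = 0.648) or counted as late (0.88, adjusted p = 1), without the 72 h arrays (1.61, adjusted p = 0.381), in Ubf fl/fl cells without the control (0.88, adjusted p = 0.156) and with the mean of all its probe sets (1.45, adjusted p = 0.0502), and the estimate stayed positive in each. In the first 3 of these settings limma called 0 of the 15272 genes (802, 143 and 1739 at an unadjusted p under 0.05), so the loss there was not particular to Snhg17. Without a single array the call was lost for either iMEF line at 24 h (adjusted p = 0.418), 48 h (0.0516) or 72 h (0.147) and for either MEF line at 72 h (0.075), and over all genes the calls were then 0, 5, 3 and 0.

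**Figure D1:**
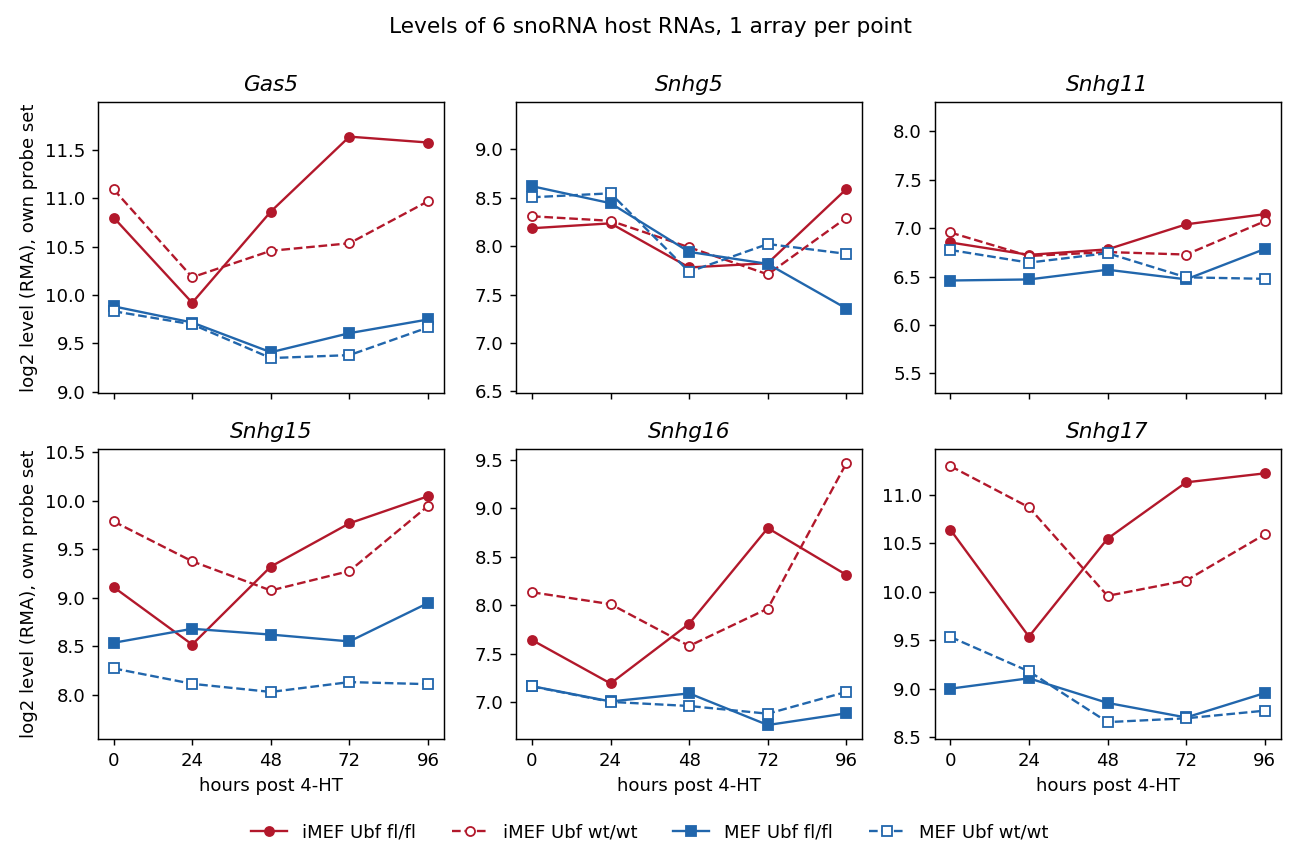
Log2 level of each host RNA on each of the 20 arrays against hours post 4-HT, in iMEFs (red circles) and primary MEFs (blue squares), where filled symbols mark floxed (Ubf fl/fl) and open symbols control (Ubf wt/wt) lines. In iMEFs, Snhg17 went from 10.64 to 11.22 in floxed and from 11.30 to 10.59 in control cells, whereas Snhg11 stayed between 6.71 and 7.14.

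The 3 probe sets of Snhg17 followed each other closely, with r from 0.95 to 0.98 over 20 arrays. When every probe set with 1 symbol was fitted on its own, their late effects in iMEFs were 1.74 ± 0.24 (adjusted p = 0.0272), 1.62 ± 0.25 (adjusted p = 0.0351) and 0.98 ± 0.26 (adjusted p = 0.0893), all from limma over 16685 probe sets. They differed in size and not in direction.

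Snhg11, the neighbour of Snhg17, was nearly flat. In floxed iMEFs it stood at 6.85, 6.72, 6.78, 7.04 and 7.14 over the 5 times, and in control iMEFs at 6.96, 6.71, 6.75, 6.73 and 7.07. The lines overlapped, and the largest difference between them at one time was at 72 h. Its late effect was 0.18 ± 0.18 in iMEFs (95% confidence interval -0.22 to 0.58; limma, adjusted p = 0.572). In primary MEFs it was 0.28 ± 0.18 (-0.12 to 0.68, adjusted p = 0.718). The interval for Snhg17 in iMEFs was 1.22 to 2.26 and did not overlap that of Snhg11, although the difference between these genes was not tested. The second probe set of Snhg11 (r = 0.78 with the first over 20 arrays) gave 0.16 ± 0.19 in iMEFs. The first had a mean level at percentile 18.8 of the genes kept, and did not pass a filter at the 60th percentile, so the signal was dim. Of 10 neuron markers 7 were kept and 3 (Snap25, Nefl and Elavl4) lay under the 40th percentile on every array.

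Gas5 and Snhg15 had late effects of about 2-fold in iMEFs, with adjusted p just over the threshold. Gas5 was at 10.80, 9.92, 10.86, 11.64 and 11.58 in floxed iMEFs and at 11.09, 10.18, 10.46, 10.53 and 10.97 in control iMEFs. Its level at 24 h was lower than at 0 h by about the same amount in both lines, with changes of -0.88 and -0.91, and the lines parted from 48 h on. The late effect was 0.98 ± 0.20, or 1.97-fold (adjusted p = 0.0622 from limma). From the early to the late mean the floxed line changed by 0.997 and the control by 0.02. Relative to 0 h alone, the floxed line changed by 0.06, 0.84 and 0.77 at 48, 72 and 96 h and the control by -0.63, -0.56 and -0.12, so the share of each line depended on whether 24 h was counted as early.

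Snhg15 gave 9.11, 8.52, 9.32, 9.77 and 10.05 in floxed iMEFs. In the control it gave 9.79, 9.38, 9.07, 9.28 and 9.95, so at 96 h the lines lay within 0.10 of each other. The late effect was 1.05 ± 0.19, or 2.07-fold (adjusted p = 0.0583 from limma), with the floxed line changing by 0.90 from an early mean of 8.81 and the control by -0.15 from 9.58. Without the 96 h arrays both genes passed (Gas5 1.03, adjusted p = 0.0281; Snhg15 1.139, adjusted p = 0.0203), but in that setting 10.9% of all genes were called, or 1663 against 34 with all arrays.

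Snhg16 and Snhg5 did not pass in iMEFs. Snhg16 stood at 7.64, 7.19, 7.81, 8.80 and 8.31 in floxed and at 8.13, 8.01, 7.58, 7.97 and 9.47 in control iMEFs. The control value at 96 h was the highest of all 20, and the difference relative to 0 h was 0.72 at 48 h, 1.32 at 72 h and -0.66 at 96 h. Its late effect was 0.63 ± 0.43 (adjusted p = 0.410 from limma), with 1.19 (adjusted p = 0.0233) when the 96 h arrays were left out, where 10.9% of all genes were called, and 0.19 when the 72 h arrays were. Snhg5 was at 8.18, 8.23, 7.78, 7.82 and 8.59 in floxed and at 8.31, 8.26, 7.99, 7.71 and 8.29 in control iMEFs, moving in parallel in both lines. It gave 0.14 ± 0.23 (adjusted p = 0.748), with a 95% confidence interval of -0.37 to 0.66.

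Over the 6 hosts the late effect in iMEFs was positive for 6, with a median of 0.80, whereas it was positive for 46.4% of all genes tested and the median over them was -0.04. In primary MEFs it was positive for 4 of 6 and for 59.2% of all genes, with a median of 0.14 against 0.06 over all genes. No host passed in MEFs, where limma called 0% of the 15272 genes (0 genes; 1052 at an unadjusted p under 0.05). Snhg17 had the largest of the 6, at 0.43 ± 0.23 (adjusted p = 0.718). It lay between 8.70 and 9.11 in floxed MEFs, with a median of 8.96. Control MEFs stood at 9.54, 9.18, 8.66, 8.69 and 8.77 over the 5 times. Both lines were lower at the late times, by 0.22 and 0.65 on the log2 scale, with no overlap between early and late values in either line. The other hosts lay between -0.19 (Snhg5) and 0.28 (Snhg11) in MEFs.

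**Figure D2:**
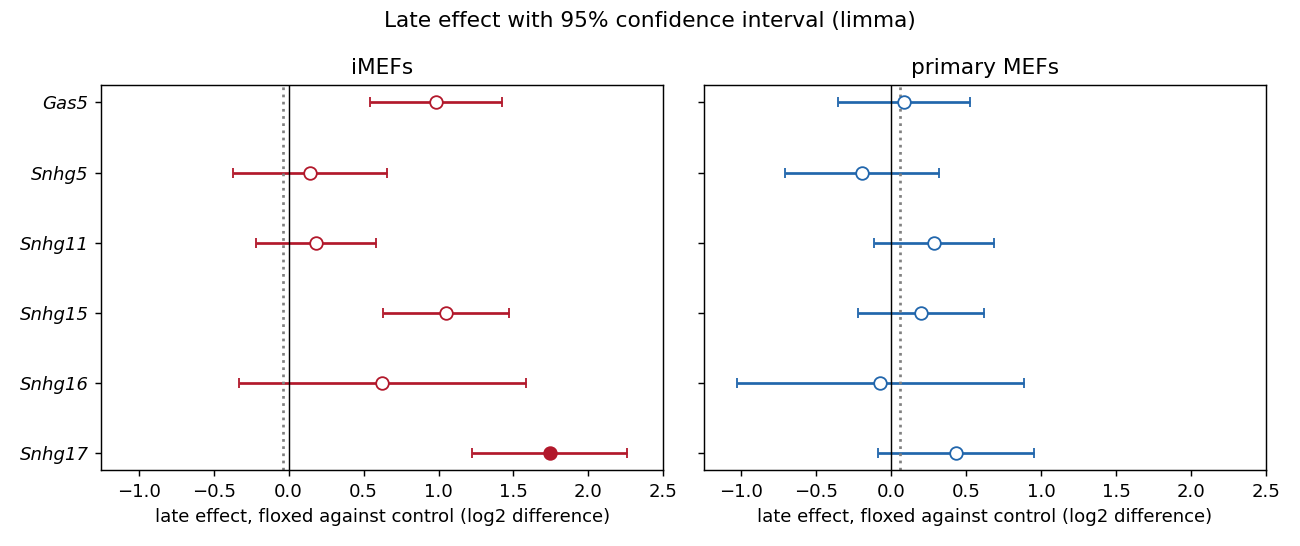
Late effect (floxed against control) for each host RNA, as a log2 difference with its 95% confidence interval from limma, in iMEFs (left) and primary MEFs (right). The filled point passed the threshold, the solid vertical line is 0 and the dotted line is the median over 15272 genes. The intervals of Gas5, Snhg15 and Snhg17 lie above 0 in iMEFs, and all 6 intervals include 0 in MEFs.

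The difference of the late effect between iMEFs and MEFs was tested directly. It was 1.31 ± 0.33 for Snhg17 (adjusted p = 0.599 from limma), 0.89 ± 0.28 for Gas5 and 0.85 ± 0.27 for Snhg15 (adjusted p = 0.614 for both). It was smaller for Snhg16 (0.70 ± 0.61), Snhg5 (0.34 ± 0.33) and Snhg11 (-0.10 ± 0.26). No host passed, and limma called 0% of all genes here (0 genes; 1136 at an unadjusted p under 0.05), so a response particular to iMEFs is not shown. In simulated data this contrast recovered only 14 of 100 changes of 1 on the log2 scale, so differences of this size could be missed.

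The level itself differed between cell types for most hosts. Snhg17 was 1.65 ± 0.19 higher in iMEFs than in primary MEFs over all times, or 3.13-fold (adjusted p = 6.4e-07 from limma). Gas5 was 1.17 ± 0.15 higher (2.26-fold), Snhg16 1.09 ± 0.19 (2.13-fold) and Snhg15 1.03 ± 0.13 (2.04-fold), with adjusted p from 2.4e-06 to 5.5e-05. The direction for Gas5 rests on the probe set used: by another one, 10351026, Gas5 was lower in iMEFs by 0.65 on the log2 scale (SE 0.16, adjusted p = 0.0011 from limma), and with the mean of its probe sets the difference was 0.15 (adjusted p = 0.300). For Snhg17, Gas5 and Snhg16, 10 of 10 iMEF arrays lay above every MEF array. For Snhg15 it was 9 of 10, the exception being floxed cells at 24 h. Snhg11 was 0.29 ± 0.07 higher (1.22-fold, adjusted p = 0.0015), with 5 of 10 iMEF arrays above all MEF arrays. Snhg5 was alone in not passing, at 0.03 ± 0.12 (95% confidence interval -0.23 to 0.29, adjusted p = 0.841). The count of 5 of 6 stands beside 82.7% of all genes called in this contrast, so passing here does not set the hosts apart. The share of all genes whose iMEF arrays lay above every MEF array was not counted, so that separation does not either. The median over the hosts was 1.06 and over all genes 0.12. Median scaling on the probe sets of longer RNAs moved the median over all genes to 0.26 and that of the hosts to 1.20. Under quantile scaling on those probe sets Snhg5 also passed (0.30, adjusted p = 0.0392). Markers of several cell types moved with this contrast too. Of macrophage markers 8 of 8 kept were lower in iMEFs, and their summed level ran from 9.69 to 10.88 in iMEFs and from 12.39 to 13.69 in MEFs on the log2 scale. Of 10 fibroblast markers all were lower in iMEFs and 9 passed (median -0.77), with sums of 14.88 to 15.47 in iMEFs and 15.83 to 15.94 in MEFs. Of 4 epithelial markers kept all were higher in iMEFs and 3 passed (median 0.53), with sums of 10.12 to 11.28 in iMEFs and 9.32 to 10.10 in MEFs. The part of these cell types in the result was not tested.

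Averaged over all times, no host passed between floxed and control iMEFs, where limma called 4.85% of all genes, with estimates from -0.28 (Snhg16) to 0.31 (Gas5). At single times floxed minus control in iMEFs was wider and took both signs, from -1.34 at 24 h to 1.01 at 72 h for Snhg17, with 1.10 for Gas5 at 72 h and -1.15 for Snhg16 at 96 h. No host passed between the MEF lines by the probe sets used, where 1.93% of genes were called. Snhg15 came nearest there: it ran from 8.53 to 8.95 in floxed and from 8.03 to 8.27 in control MEFs, without overlap, a difference of 0.54 ± 0.19 (adjusted p = 0.253 from limma). A smaller difference in the same direction was present at 0 h, with 8.53 against 8.27. At 24, 48, 72 and 96 h floxed minus control was 0.57, 0.59, 0.42 and 0.84.

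Snhg5 was lower at the late times on average over the lines. In primary MEFs it was at 8.62, 8.44, 7.94, 7.82 and 7.36 in floxed and at 8.50, 8.55, 7.73, 8.02 and 7.92 in control cells at 0, 24, 48, 72 and 96 h. All late values lay under all early values in both MEF lines. In iMEFs they overlapped, because the 96 h values returned to 8.59 and 8.29. Over the 4 lines Snhg5 was lower at the late than at the early times by 0.47 ± 0.13 on the log2 scale (1.39-fold lower, adjusted p = 0.0214 from limma), and it was the 1 of 6 hosts called, where 12.4% of all genes were. The call was lost without the 24 h arrays, as the estimate became -0.49 (adjusted p = 0.112), and without the MEF arrays of floxed cells at 0 h (adjusted p = 0.0609) or 24 h (0.0579) or of control cells at 24 h (0.0543). Other hosts also changed with time in single lines. For Snhg17 the late values lay under the early ones in control iMEFs (-0.86) and in both MEF lines, but the change was 0.88 in floxed iMEFs, so that the average over lines was -0.21 ± 0.19 (adjusted p = 0.565). For Gas5 they lay under the early ones in control MEFs (-0.30).

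Gas5 was measured by 4 probe sets, and they did not tell the same story. Probe set 10351037, used above, lists RefSeq transcript Gas5 alone, whereas 10351026 lists it with 3 further cDNAs. Probe set 10351026 gave 7.44, 7.62, 7.70, 8.06 and 8.68 in floxed iMEFs and 8.41, 8.37, 8.40, 8.55 and 9.47 in control iMEFs. Here the control lay above the floxed line at every time, and the floxed line was lowest at 0 h instead of 24 h. In MEFs it gave 8.51, 8.24, 8.40, 8.42 and 7.69 in floxed and 9.29, 9.40, 9.50, 9.97 and 9.78 in control cells, without overlap.

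By this probe set, Gas5 was lower in floxed than in control MEFs by 1.34 on the log2 scale (SE 0.22, adjusted p = 0.0026 from limma), where the first gave 0.09 ± 0.22. Its late effect in iMEFs was 0.19 ± 0.26 (adjusted p = 0.690). Probe set 10351035 resembled the first, with a late effect in iMEFs of 1.63 ± 0.31 (adjusted p = 0.0559) and a cell-type difference of 0.68 ± 0.20. The remaining one lay under the 40th percentile on all 20 arrays. Which exons or introns each probe set covers was not used here.

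Snord47, a box C/D snoRNA inside Gas5, followed the first probe set and not the second. Its level was 9.35, 8.10, 9.57, 10.19 and 10.03 in floxed iMEFs and 10.42, 7.59, 8.94, 8.60 and 9.40 in control iMEFs. In MEFs it ran from 7.79 to 8.47 over both lines. Over 20 arrays, which share lines and times, its correlation with probe set 10351037 was 0.91 and with 10351035 0.80, and with 10351026 it was -0.32. With the mean of each line taken off these became 0.86, 0.70 and 0.33. The late effect of Snord47 was 1.23 ± 0.42 in iMEFs by limma (adjusted p = 0.141), against 0.04 ± 0.42 for primary MEFs (adjusted p = 0.977).

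**Figure D3:**
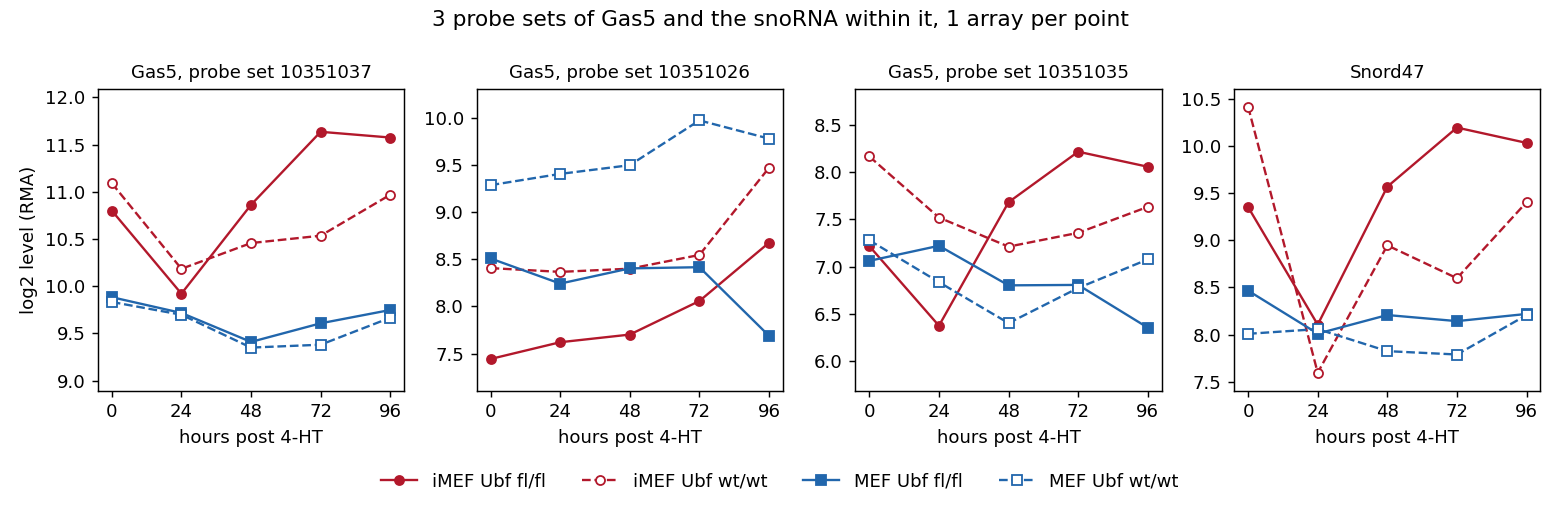
Log2 level on each array against hours post 4-HT for 3 probe sets of Gas5 and for the snoRNA Snord47, with lines and symbols for the 4 cell lines as in the legend. Probe sets 10351037 and 10351035 and Snord47 have their lowest value of the floxed iMEF line at 24 h, while 10351026 is highest in control MEFs (9.29 to 9.97).

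In iMEFs the hosts other than Snhg5 moved with the snoRNAs at large. On each array the median level of 51 measured snoRNAs and scaRNAs was taken, which in floxed iMEFs was 9.09, 7.84, 9.27, 9.97 and 10.00 and in control iMEFs 9.62, 8.80, 8.88, 8.60 and 9.46. The lowest iMEF value, at 24 h in floxed cells, fell on the array where Gas5, Snhg15, Snhg16 and Snhg17 were also at their lowest iMEF level. On that array the median over all genes kept was 8.16, the highest of the 10 iMEF arrays, which otherwise lay between 7.96 and 8.11, and its part in the result was not tested. Gas5 is taken here by probe set 10351037 alone. Its r with probe set 10351026 was -0.35 over the 20 arrays and 0.42 with line means taken off. Within iMEFs, with line means taken off (10 arrays sharing 2 lines), the correlation with the snoRNA median was 0.97 for Gas5, 0.94 for Snhg15, 0.88 for Snhg17, 0.84 for Snhg11, 0.73 for Snhg16 and 0.19 for Snhg5. Within MEFs, where values moved less, it was 0.73 for Gas5 and Snhg17, 0.49 for Snhg11 and 0.47 for Snhg5. It was 0.34 for Snhg15 and 0.26 for Snhg16, so Snhg5 did not stand apart in MEFs. All 51 snoRNAs and scaRNAs had positive late effects in iMEFs, 10 passed upward and the median was 1.37. Over all genes 46.4% were positive, 0.223% passed in either direction and the median was -0.04. In primary MEFs 43 of the 51 were positive, against 59.2% of all genes, and 0 passed. None passed in the difference between cell types either, and 0% of all genes passed in these 2 contrasts. The largest of those that passed were Snord38a (1.98 ± 0.24), Snord35b (1.97 ± 0.28), Snord49a (1.82 ± 0.30) and Snord52 (1.74 ± 0.22). Snord38a was dim, with levels from 3.53 to 6.89. It was over the cutoff of the filter on low values on only 2 of the 20 arrays, the fewest that the filter allowed. Its estimate therefore rests mostly on values under that cutoff. Snord35b, Snord49a and Snord52 were over it on all 20 arrays. Others of the 51 were also over it on few arrays: Snord61 on 2, Snora75 on 3, Scarna8 and Snord85 on 6 and Snora20 on 8. All 51 were higher in iMEFs than in MEFs, so such dim RNAs may have been kept through their iMEF levels. What this adds to the counts and medians over the 51 was not tested.

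**Figure D4:**
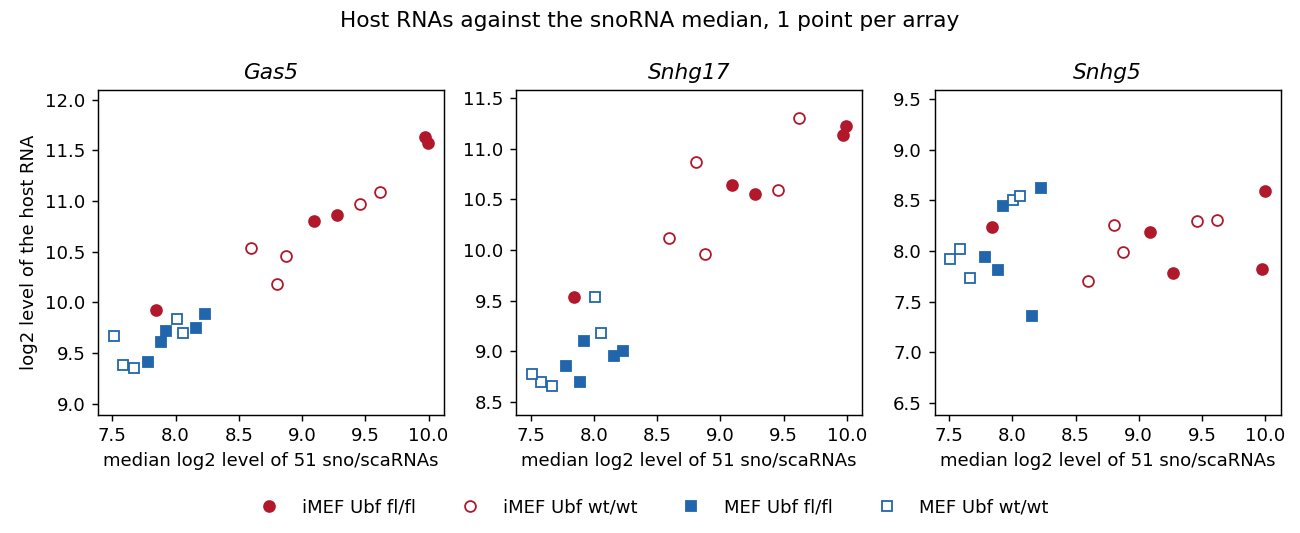
Log2 level of Gas5 (probe set 10351037), Snhg17 and Snhg5 on each array against the median log2 level of 51 snoRNAs and scaRNAs on that array, with colours and symbols for the 4 cell lines. Gas5 and Snhg17 rise with the snoRNA median from MEF to iMEF arrays, and Snhg5 shows no such order.

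No gene for the proteins or decay factors that act on host transcripts passed in iMEFs, where 0.223% of all genes did, 46.4% were positive and the median was -0.04. Of 20 genes for snoRNP proteins and their assembly, 0 passed in iMEFs (limma, over all genes), 8 were positive and the median late effect was -0.17. Nufip1, an assembly factor of box C/D particles, was at -0.85 ± 0.26 (adjusted p = 0.111) and Nop58, a core protein of those particles, at -0.84 ± 0.51. Of 18 nonsense-mediated decay factors 14 were measured, of which 0 passed and 2 were positive, with a median of -0.23. Gspt1 and Etf1, the translation release factors, were at -1.07 ± 0.41 and -1.06 ± 0.52.

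Hosts that encode proteins did not pass either. Of 50 such genes 41 were measured, 0 passed in iMEFs, 8 were positive and the median was -0.14, with Cnot1, a scaffold of the deadenylase complex, at -1.30 ± 0.32 (adjusted p = 0.0743) and Eif4g2, a translation initiation factor, at -0.85 ± 0.32. Among 10 other non-coding hosts 3 were measured, and 0 of them passed in iMEFs. They were Rian (0.44 ± 0.23), Meg3 (0.24 ± 0.26) and Dancr (0.08 ± 0.23), which lie beside the medians of the 6 hosts (0.80) and of all genes (-0.04).

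Single genes with the most similar profile were sought by Pearson's r over the 20 arrays among 14332 genes, predicted genes and small RNAs left out. The arrays share lines and times, so these values describe likeness only. For Snhg17 they were Set, which encodes a histone chaperone (0.98), Irf3, a factor of antiviral transcription (0.97), H2bu1-ps and H2bc22, histone H2B genes (0.96 each), and Tmem121 (0.96), and r was over 0.9 for 530 genes. For Snhg11 they were Usf2, an E-box factor, and Chgb, a granin of secretory granules (0.93 each), then Ybx2, Klk15 and Dhrs13os (0.91 to 0.92). Gas5 was closest to Mtag2 and Mogs (0.96 each), H2bu1-ps, H2bc22 and Rfx3 (0.94 each).

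Snhg15 was closest to Cdpf1 (0.95), Junb, an AP-1 subunit, and Dffb, an apoptotic nuclease (0.94 each), and to Znhit2 and Slc8b1 (0.93 each). Snhg16 was closest to Angptl6 and Fgf21 (0.96 each), a pair of secreted factors, and to Tmem256, Phox2a and Lin7b (0.95 to 0.96). Snhg5 had no gene over 0.9. Its nearest were Aspm, Kif20b and Cenpf, which act in mitosis (0.78 to 0.79), Cip2a (0.77) and Mcm8, a DNA helicase (0.77).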

How the data were processed

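Expression was measured in 20 samples of 4 cell lines on Affymetrix whole-transcript arrays. The paper names Mouse Gene 2.0 ST, whereas the annotation paired with the probe sets is that of Mouse Gene 1.0 ST. The values deposited by the authors are log2 levels, made by RMA-sketch over all arrays with Affymetrix Power Tools 1.14.4. Of 35556 probe sets, 21789 carried 1 symbol, and 15272 of 19938 genes were kept.

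Tests used limma 3.58.1 in R 4.3.3, with Benjamini-Hochberg adjustment over all genes kept and a threshold of 0.05. The late effects were fitted with terms for line, time within cell type and genotype by late time (6 residual degrees of freedom, prior 4.78). The other contrasts used line and time (12, prior 4.55). The fits were tested on simulated data. A change of 1 on the log2 scale was recovered for 58 of 100 genes by the late effect in iMEFs and 59 in MEFs. By the difference of the late effect between cell types it was recovered for 14 of 100, and a change of 2 for 75 of 100. Plots were made with matplotlib 3.10.9 under Python 3.11.15.

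The members, gene lists and contrasts were chosen with earlier results of these data known. Named genes were every member, the 5 most correlated genes of each, measured snoRNAs inside them, and for each list up to 4 genes that passed in iMEFs or else the 2 with the largest late effect there (Dancr was added). Locus and start sequences are from RefSeq (GRCm38.p6), in which strand was not given for the snoRNAs, so all those inside a host's coordinates were counted. The alternatives were other scalings, filters, probe set rules and empirical Bayes settings, times left out or reassigned, floxed cells alone, each cell type alone, and each array left out. Single probe sets were added after seeing the data.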

Additional observations from a re-analysis of the deposited data

How the results depend on the processing

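Of the 6 hosts, 1 passed in iMEFs by the late effect as reported, 0 without the 24 h arrays, with 24 h counted as late, without the 72 h arrays, in floxed cells alone and with the mean of all probe sets, 2 with trend and robust settings (Snhg15 too), 4 without the 96 h arrays (Gas5, Snhg15 and Snhg16 too), and 0 to 3 with 1 array left out. The count over all genes moved with it: it was 34 as reported, 0 in the first 3 of these settings, 21 in floxed cells alone, 30 with the mean of probe sets, 92 with trend and robust settings, 1663 without the 96 h arrays and 0 to 998 with 1 array left out. For late against early times over the 4 lines the count was 1 as reported, 0 without the 24 h arrays (741 of all genes against 1898), and 0 to 1 with 1 array left out. For the level between cell types it was 4 to 6. For the late effect in MEFs, its difference between cell types and the level between genotypes, the count was 0 as reported and under each of these settings; of single probe sets, 10351026 of Gas5 passed between MEF genotypes (adjusted p = 0.0026). The cause of these changes was not tested.

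Of the estimates that changed sign, the level of Gas5 between cell types (by 10351026) was the one that had passed. With the mean of all probe sets the MEF late effect of Gas5 was -0.41, its genotype difference -0.099 in iMEFs and -0.31 in MEFs, the genotype difference of Snhg11 in iMEFs -0.061 and its cell-type difference of the late effect 0.046. Quantile scaling gave a genotype difference of -0.027 for Snhg5 in iMEFs. Without the 24 h arrays the genotype difference of Snhg15 in iMEFs was 0.040, and late minus early was -0.14 for Gas5 and -0.0060 for Snhg11. Without the 96 h arrays the MEF late effect of Snhg16 was 0.0031 and the cell-type difference of the late effect of Snhg11 0.067. In floxed cells alone the late change was -0.15 for Snhg5 in iMEFs, and -0.21 for Gas5 and -0.22 for Snhg17 in MEFs (0.43 for Snhg17 as reported).

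With 1 array left out, the MEF late effect of Snhg16 ranged from -0.17 to 0.0031, the cell-type difference of the late effect of Snhg11 from -0.20 to 0.035, the level difference between cell types of Snhg5 from -0.075 to 0.074, and late minus early of Gas5 from -0.021 to 0.22. The genotype difference in iMEFs ranged from -0.27 to 0.059 for Snhg15, -0.16 to 0.38 for Snhg17 and -0.17 to 0.093 for Snhg5. In MEFs it ranged from -0.039 to 0.24 for Gas5, -0.14 to 0.12 for Snhg16, -0.15 to 0.059 for Snhg17 and -0.20 to 0.095 for Snhg5.

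Of single probe sets, chosen after seeing the data, 10351026 of Gas5 gave -0.61 for the MEF late effect, -0.65 between cell types and -0.74 and -1.34 between genotypes in iMEFs and MEFs. Probe set 10351035 of Gas5 gave -0.18, and -0.068 and -0.025 between genotypes, with -0.012 for late minus early. For Snhg11, 10478066 gave -0.036 in MEFs, 0.19 for the difference of late effects and -0.19 between iMEF genotypes. For Snhg17, 10489235 gave 0.088 and 10489237 gave 0.097 for late minus early, and the latter -0.055 and 0.0027 between genotypes in iMEFs and MEFs. In the late-effect fit floxed and control arrays are matched by time, so leaving out either of a pair gives the same estimate. Beyond this matching by time no further block could be fitted, because each condition had 1 array. Dim probe sets such as those of Snhg11 limit what could be detected, and the early times include 24 h, after 4-HT was given.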
